A study of Mus musculus with 18 samples.

Results

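Toll-like receptor signalling was followed in the developing mouse ileum through 9 genes. These are the receptors Tlr3 and Tlr4, the lipopolysaccharide co-receptor Cd14, the adaptor Myd88, the kinase Irak1 and the inhibitors Tollip, Sigirr, Nfkbia and Tnfaip3. The genes were chosen by symbol, with earlier results of these data known, among 18193 genes with a probe set annotated to a single symbol. Each is shown by its probe set with the highest mean over 18 arrays. Of the 9 genes, 8 passed the filter on dim probe sets (log2 6 on at least 3 arrays), which left 8630 genes in the test. Tlr4 reached that level on 0 arrays. Tlr3 reached it on 4 arrays and Cd14 on 5, all of days 24 and 32, and Tnfaip3 on 6 arrays of those days and 1 earlier array, so these 3 genes entered the test through the ages at which they were high.

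The samples were ileum of C57BL/6 mice, an inbred laboratory strain, taken from 3 individual mice at each of 6 postnatal ages (days 4, 7, 9, 11, 24 and 32). No genotype, treatment, sex or litter is given, and the pieces contained the whole thickness of the gut wall. The labels call the series a course from before to after weaning without naming the day. Days 4 to 11 (12 arrays) are compared here with days 24 and 32 (6 arrays), with weaning placed between them from general knowledge of mice.

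Toll-like receptors are membrane receptors that recognise molecules of microbes, at the cell surface or in endosomes. Most of them recruit the adaptor Myd88, which brings in Irak kinases and leads through the kinase Map3k7 to NF-kappaB, the transcription factor family that turns on inflammatory genes. Tlr3 uses the adaptor Ticam1 instead. The pathway is held back at several levels, by proteins that compete for or bind the receptor complex (Sigirr, Tollip), that remove ubiquitin signals (Tnfaip3, also called A20), or that keep NF-kappaB in the cytoplasm (Nfkbia). The lining of the gut lies against bacteria throughout postnatal life, and these inhibitors are known to limit its response to them.

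Promoter sequences of 4 of the genes are shown because the genes were higher on all 6 later arrays and because their promoters hold a match to a motif of the factors that end this pathway. NF-kappaB sites were searched on both strands as GGG, any 2 bases and TTTCC (on the other strand GGAAA, any 2 bases and CCC). Interferon-stimulated response elements, the sites of interferon regulatory factors, were searched on both strands as GAAA, any 2 bases and GAAA (TTTC on each side when read on the other strand). The sequences are from RefSeq (build GRCm38.p6), which the array files do not name, and run 5′ to 3′ on the gene's strand from 250 bases before to 50 bases after the transcript start. Capitals mark the match.
Tlr3 promoter, chr8:45410331-45410630, minus strand: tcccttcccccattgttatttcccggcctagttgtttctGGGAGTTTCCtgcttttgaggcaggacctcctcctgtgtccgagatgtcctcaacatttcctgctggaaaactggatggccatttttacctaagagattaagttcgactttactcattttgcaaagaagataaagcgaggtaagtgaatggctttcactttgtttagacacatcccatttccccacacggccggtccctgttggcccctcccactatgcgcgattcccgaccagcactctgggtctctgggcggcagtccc
Nfkbia promoter, chr12:55492598-55492897, minus strand: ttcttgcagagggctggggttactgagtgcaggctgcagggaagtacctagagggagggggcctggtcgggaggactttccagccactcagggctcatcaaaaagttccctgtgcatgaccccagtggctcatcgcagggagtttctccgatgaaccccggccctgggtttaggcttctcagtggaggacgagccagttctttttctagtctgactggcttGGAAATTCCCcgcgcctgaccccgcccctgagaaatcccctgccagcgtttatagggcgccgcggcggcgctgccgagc
Tnfaip3 promoter, chr10:19015361-19015660, minus strand: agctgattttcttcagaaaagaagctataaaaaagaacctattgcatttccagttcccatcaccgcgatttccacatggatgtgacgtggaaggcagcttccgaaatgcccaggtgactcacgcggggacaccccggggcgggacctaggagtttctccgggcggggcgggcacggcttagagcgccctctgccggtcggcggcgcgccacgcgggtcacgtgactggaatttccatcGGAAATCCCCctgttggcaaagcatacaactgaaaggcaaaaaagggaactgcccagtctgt
Myd88 promoter, chr9:119339969-119340268, minus strand: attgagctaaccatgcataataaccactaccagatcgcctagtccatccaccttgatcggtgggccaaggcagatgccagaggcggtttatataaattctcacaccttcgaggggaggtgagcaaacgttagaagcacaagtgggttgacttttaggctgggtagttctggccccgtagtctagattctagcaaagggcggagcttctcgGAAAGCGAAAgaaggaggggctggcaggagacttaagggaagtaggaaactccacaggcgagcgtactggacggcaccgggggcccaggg
The NF-kappaB motif began 211 bases before the start in Tlr3, 29 in Nfkbia and 12 in Tnfaip3, and was on the gene strand in Tlr3 and on the other strand in Nfkbia and Tnfaip3. Of 32851 mouse promoters of the same length, 1.63% held it. The interferon motif began 40 bases before the start in Myd88, and 3.44% of promoters held it. Promoters were matched for 6 of the 9 genes, and those of Tollip and Irak1 held neither motif in this window. RefSeq lists another start of Tnfaip3, whose promoter held neither motif and is not shown. A looser motif, GGG, any 5 bases and CC on either strand, which takes in the first NF-kappaB motif, was in 5 of those 6 genes and in 50.8% of all promoters. A match is only a run of letters, and binding was not measured.

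Some measurements of the arrays moved with age and stand beside every comparison below. RNA controls added before labelling (poly-A controls) averaged 4.05 ± 0.26 (SD, n = 12) on days 4 to 11 and 5.53 ± 0.46 (SD, n = 6) on days 24 and 32, on the log2 scale. The signal for 18S ribosomal RNA averaged 6.15 ± 0.89 (SD, n = 12) and 9.04 ± 1.62 (SD, n = 6), with 10.3 to 10.8 on day 24 and 7.01 to 7.96 on day 32. Controls added at hybridization formed 2 sets of arrays, a higher one with all 6 later arrays and 4 earlier ones, and a lower one with 8 earlier arrays. Xist, an RNA that female cells make from their silenced X chromosome, was 8.68 or above on 9 of 12 earlier arrays and 1 of 6 later ones, and 5.12 or below on the rest. Day 24 replicate 3 stood apart in RNA integrity: its log2 difference between 3′ and 5′ probe sets was 1.40 for Actb and 0.92 for Gapdh, above the highest of the other 17 arrays (0.797 and 0.866). Array medians lay between 3.88 and 3.97, and since the table has no detection calls, a level near them could not be told from background. The part of these measurements in the results was not tested except where a value is given with them.

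Days 24 and 32 were first set against days 4 to 11, to see which of the 9 genes had another level once the mice were past weaning. The receptor Tlr3, the co-receptor Cd14, the adaptor Myd88, the kinase Irak1 and the inhibitors Nfkbia and Tnfaip3 rose, while the inhibitors Tollip and Sigirr fell. Each of the 6 genes that rose had all 6 later arrays above all 12 earlier ones. Over all genes without a filter, 9.77% had this order, and 15.5% of the genes tested. The 9 genes were chosen with earlier results of these data known, and Tlr3, Cd14 and Tnfaip3 entered the test through the later arrays. These shares are therefore a description and not a test. Of the 9 genes 0 had all later arrays below all earlier ones, an order found in 21.7% of the genes tested. All 8 genes in the test were called (limma, Benjamini-Hochberg adjusted p below 0.05), beside 72.9% of all genes tested, 31.1% higher and 41.8% lower. In the test of any difference among the 6 ages, 8 of 8 were called, beside 68.3% of all genes, and Tlr4 had an adjusted p of 0.055 in the limma fit without the filter, where 46.9% were called. A call alone is thus common in this comparison, and the median difference over all genes was -0.07. In whole pieces of gut, fewer cells of a type and less RNA per cell cannot be told apart.

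**Figure D1:**
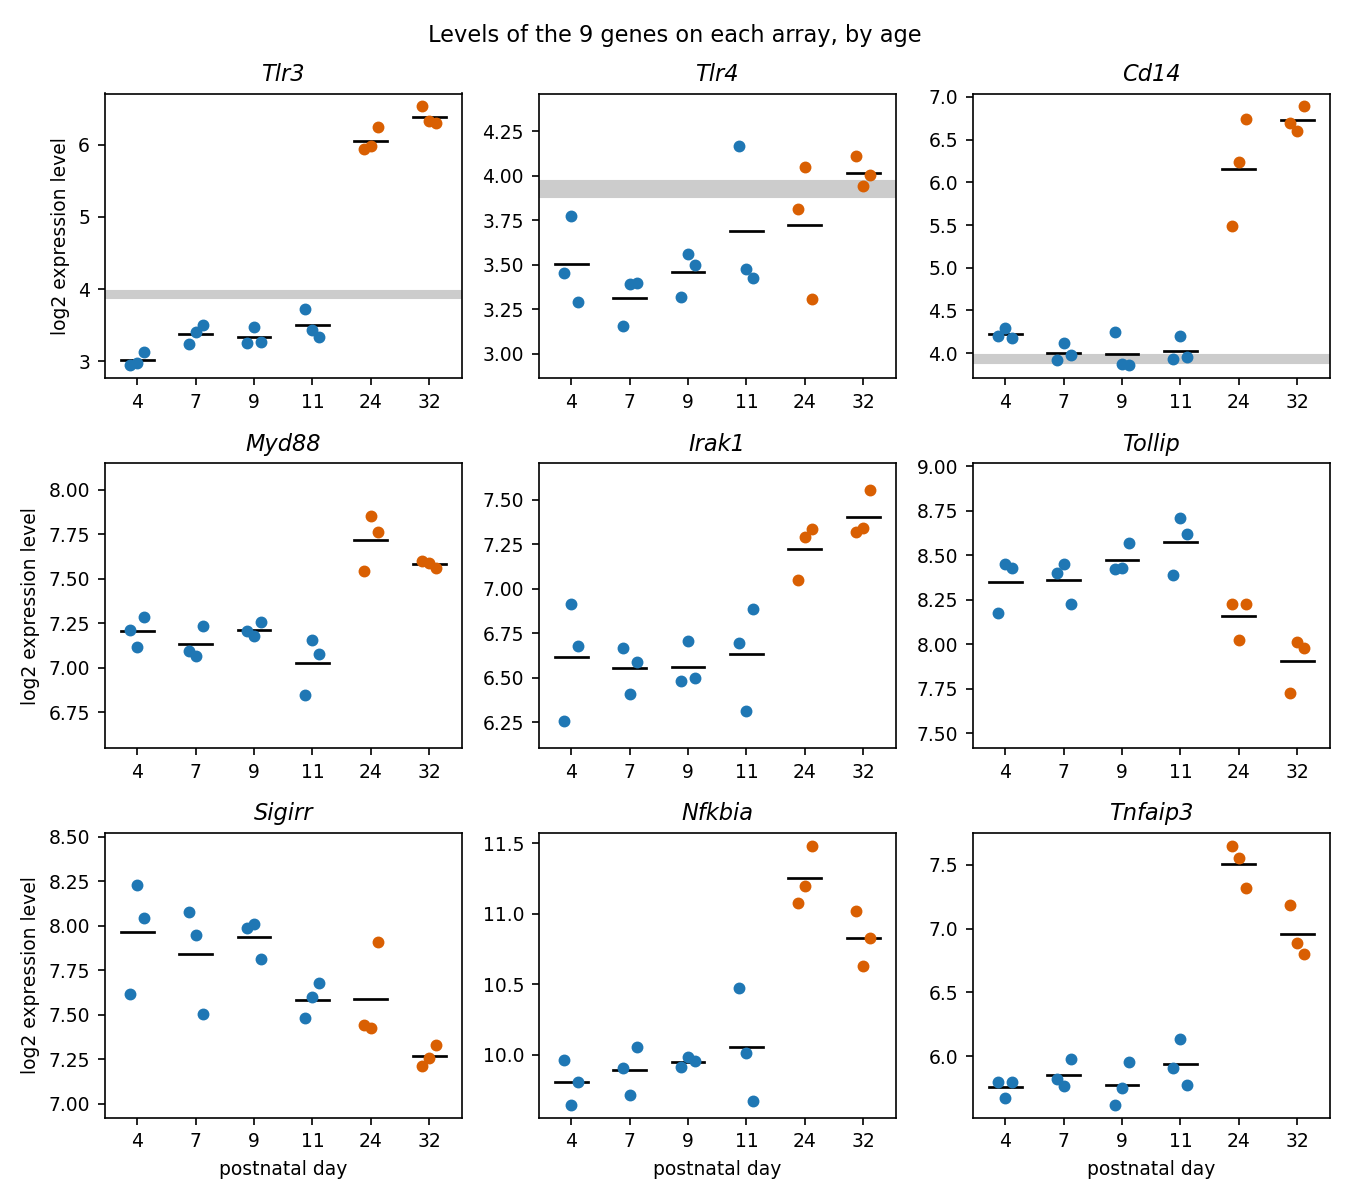
Log2 expression level (y) of the 9 genes on each of 18 arrays, by postnatal day (x); points are single mice, blue for days 4 to 11 and orange for days 24 and 32, black lines are means of 3 mice, the grey band spans the array medians (3.88 to 3.97) where it falls in range, and the y axes differ between panels. Tlr3, Cd14, Myd88, Irak1, Nfkbia and Tnfaip3 have every orange point above every blue one; Tlr4, Tollip and Sigirr overlap.

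Tlr3, the endosomal receptor for double-stranded RNA, had log2 levels of 2.94, 2.97 and 3.13 on day 4, 3.24, 3.40 and 3.51 on day 7, 3.25, 3.48 and 3.27 on day 9 and 3.73, 3.43 and 3.33 on day 11. On day 24 the levels were 5.94, 5.98 and 6.24, and on day 32 they were 6.53, 6.32 and 6.30. All earlier arrays were below the array medians and all later ones were more than 2 log2 units above the highest earlier one. The fitted log2 difference was 2.91 ± 0.08 (SE, n = 6 against 12; limma adjusted p = 2.56e-16), a 7.53-fold rise whose size depends on the background correction of the earlier arrays. A second, dimmer probe set of Tlr3 differed by 1.66 with no overlap. Without day 24 replicate 3 the difference was 2.87, and with the hybridization control set as a block it was 2.83. In the order of the age means, day 4 was lowest (3.01 ± 0.10, SD, n = 3) and its arrays did not overlap those of day 9, the next (3.33 ± 0.13); days 9, 7 and 11 overlapped.

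Tlr4, the receptor that detects bacterial lipopolysaccharide, had log2 levels of 3.45, 3.78 and 3.29 on day 4, 3.16, 3.39 and 3.40 on day 7, 3.32, 3.56 and 3.50 on day 9 and 4.17, 3.48 and 3.43 on day 11. Its levels were 3.81, 4.05 and 3.31 on day 24 and 4.11, 3.94 and 4.00 on day 32. The values lay near or below the array medians at every age, and neighbouring ages overlapped all along the order of the means, from day 7 (3.32 ± 0.14, SD, n = 3) to day 32 (4.02 ± 0.09). In the limma fit without the filter the difference was 0.38 ± 0.12 (SE; adjusted p = 0.0105 over 18193 genes, of which 56.3% were called). This call ended with the hybridization control set as a block (0.12, adjusted p = 0.51) and among the 10 arrays of the higher set (0.14, adjusted p = 0.49). The other 3 probe sets of Tlr4 differed by 0.38, 0.09 and 0.11, with overlap in each.

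Cd14, which hands lipopolysaccharide to Tlr4 and its partner Ly96, had log2 levels of 4.21, 4.29 and 4.17 on day 4, 3.92, 4.12 and 3.97 on day 7, 4.24, 3.87 and 3.85 on day 9 and 3.93, 4.20 and 3.96 on day 11. It reached 5.49, 6.23 and 6.74 on day 24 and 6.69, 6.60 and 6.89 on day 32. The earlier arrays sat close to the array medians, and day 24 spread more widely than any other age (6.16 ± 0.63, SD, n = 3, against 6.73 ± 0.15 on day 32). The difference was 2.38 ± 0.13 (SE, n = 6 against 12; limma adjusted p = 8.59e-12), or 5.20-fold, and 2.23 without day 24 replicate 3. Cd14 has 1 probe set with a single symbol.

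Cd14 is a known marker of monocytes and macrophages and is also made by other cells, so markers of these and of epithelium were set beside it. The summed linear level of 13 macrophage and dendritic cell markers ran from 11.68 to 11.85 on the log2 scale on days 4 to 11 and from 9.95 to 10.31 on days 24 and 32. This drop was that of Csf1r, the receptor of a macrophage growth factor: without it the sum of the other 12 markers ran from 9.41 to 9.76 and from 9.43 to 9.71, and overlapped. Of the 6 markers that passed the filter 0 rose and 2 fell, beside 31.1% of all genes tested that rose and 41.8% that fell. The 2 were Csf1r (log2 difference -2.90 ± 0.07, SE) and the lysosomal protein Cd68 (-1.24 ± 0.13). The integrins Itgam and Itgax of myeloid and dendritic cells, below the filter, averaged 2.73 and 5.63 earlier and 3.91 and 5.98 later. Fcgr1 and Cd163, also below it, averaged 4.30 and 3.28 earlier and 4.36 and 3.56 later. Aif1, Cx3cr1 and Adgre1, below it too, were lower later, with means of 5.56, 4.63 and 5.33 earlier and 5.07, 4.44 and 5.21 later. The complement genes C1qa and C1qb, made by tissue macrophages, averaged 7.33 and 7.63 earlier and 7.39 and 7.76 later. C1qc and Mrc1, of the same list, averaged 6.30 and 6.12 earlier and 6.11 and 6.04 later. Of 9 neutrophil markers 0 passed the filter, with summed levels of 6.74 to 7.42 earlier and 6.60 to 6.97 later. Of 9 epithelial markers 7 rose and 2 fell, beside the same 31.1% and 41.8% of all genes tested. The sum of the 9 went from between 14.21 and 14.43 to between 14.91 and 15.23. Krt20, a keratin of differentiated enterocytes, rose by 4.36 ± 0.09 and Vil1, the brush border protein villin, by 0.97 ± 0.07. Epcam, a surface protein of all epithelial cells, averaged 12.04 earlier and 11.82 later. Summed levels of the other cell types moved as well. Those of B cells and plasma cells ran from 6.44 to 6.85 earlier and from 10.00 to 13.58 later. In that list Igha averaged 4.33 earlier and 11.63 later and Jchain 2.43 and 9.48, against 4.51 and 5.98 for Cd79b. Adipocyte sums ran from 9.04 to 10.61 and from 10.71 to 12.17. Fibroblast sums ran from 13.37 to 13.98 and from 12.30 to 12.98, endothelial sums from 8.63 to 9.19 and from 7.85 to 8.18, and sums of enteric neurons and glia from 8.58 to 9.00 and from 7.75 to 8.05. Genes listed as markers of hepatocytes, mostly Ttr, summed to between 11.74 and 12.72 earlier and between 6.58 and 7.34 later. Smooth muscle sums overlapped, from 13.54 to 13.86 and from 13.33 to 13.82. The part of these cells in the level of Cd14 and of the other 8 genes was not tested. All 9 epithelial markers and all 6 smooth muscle markers passed the filter, as did all 6 fibroblast and all 4 measured adipocyte markers. These lists hold no marker of ileum alone, so passing the filter does not tell ileum from other gut.

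**Figure D2:**
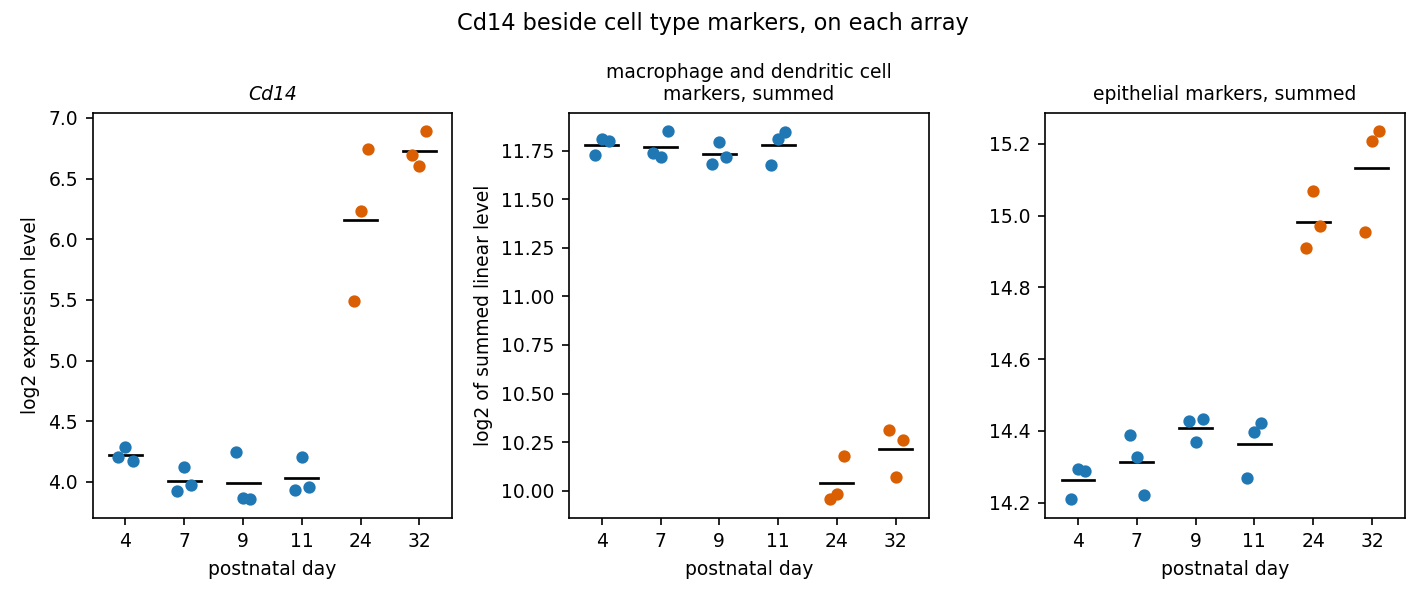
Log2 level of Cd14 (left), log2 of the summed linear level of 13 macrophage and dendritic cell markers (middle) and of 9 epithelial markers (right), by postnatal day; points are single arrays, blue for days 4 to 11 and orange for days 24 and 32, black lines are means of 3. Cd14 and the epithelial sum are higher on every later array, and the macrophage and dendritic cell sum is lower on every later array through Csf1r, without which it ranges from 9.41 to 9.76 on the earlier and from 9.43 to 9.71 on the later arrays.

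Myd88, the adaptor of most Toll-like receptors and of interleukin-1 receptors, had log2 levels of 7.21, 7.11 and 7.29 on day 4, 7.09, 7.07 and 7.23 on day 7, 7.21, 7.18 and 7.26 on day 9 and 6.85, 7.15 and 7.08 on day 11. On day 24 it was 7.54, 7.85 and 7.76, and on day 32 7.60, 7.59 and 7.56. The 6 later arrays lay above all earlier ones by a narrow margin. Neighbours in the order of the age means (11, 7, 4, 9, 32, 24) overlapped apart from day 9 and day 32, and days 9 and 11 did not overlap each other. The difference was 0.51 ± 0.06 (SE; limma adjusted p = 1.30e-06), or 1.42-fold.

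Irak1, the kinase that Myd88 recruits, had log2 levels of 6.26, 6.92 and 6.68 on day 4, 6.67, 6.41 and 6.59 on day 7, 6.48, 6.71 and 6.50 on day 9 and 6.70, 6.31 and 6.89 on day 11. Later it was 7.05, 7.29 and 7.34 on day 24 and 7.32, 7.34 and 7.56 on day 32. The earlier ages were scattered and overlapped each other, and the later arrays were all higher. The difference was 0.72 ± 0.10 (SE; limma adjusted p = 3.35e-06), or 1.65-fold. Its size rests on the probe set. The next highest of the 4 Irak1 probe sets has nearly the same mean over the 18 arrays (6.82 against 6.83) and differed by 0.31, with overlap, though it too was called (adjusted p = 0.0034). The other 2 probe sets differed by 0.04 and 0.40, again with overlap. Irak1 is X-linked, and with the level of Xist as a covariate the difference was 0.80 (adjusted p = 5.86e-05).

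**Figure D3:**
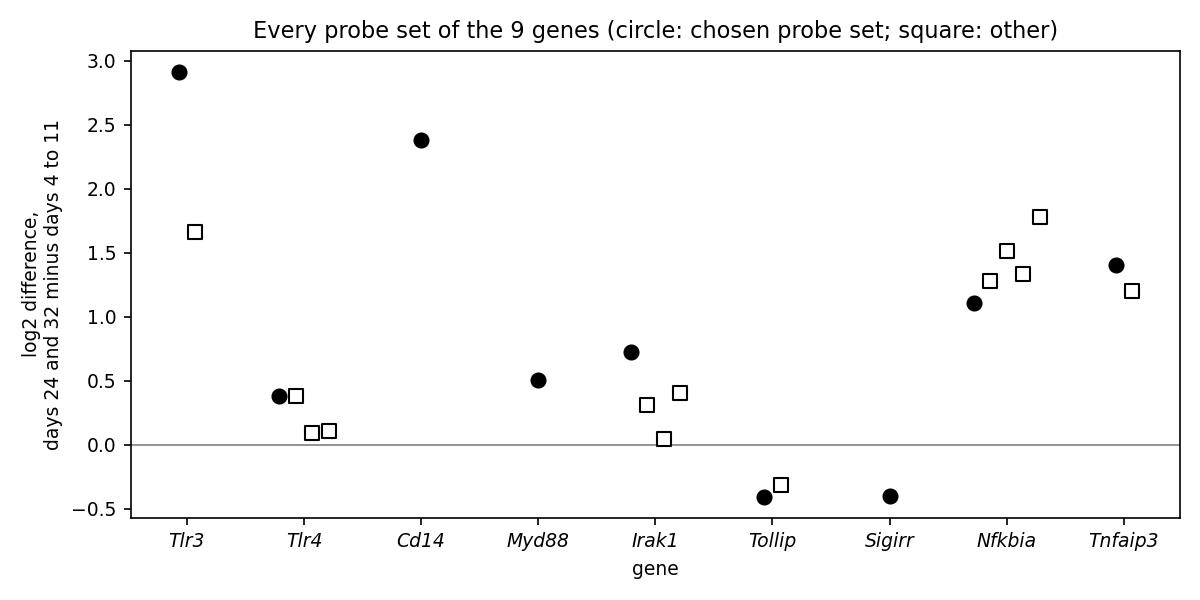
Log2 difference of days 24 and 32 minus days 4 to 11 (y) for every probe set of the 9 genes (x); filled circles are the probe sets chosen by their mean, open squares the others, with no error shown. The 5 Nfkbia probe sets range from 1.11 to 1.78, whereas the 4 of Irak1 range from 0.04 to 0.72.

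Tollip, which binds Irak1 and dampens its activation, had log2 levels of 8.17, 8.45 and 8.43 on day 4, 8.40, 8.45 and 8.23 on day 7, 8.43, 8.43 and 8.57 on day 9 and 8.39, 8.71 and 8.62 on day 11. It was 8.23, 8.03 and 8.23 on day 24 and 7.72, 8.01 and 7.98 on day 32. Day 32 lay below all other arrays, and day 24 overlapped only with day 4 and day 7. The fall was -0.41 ± 0.07 (SE; limma adjusted p = 7.16e-05), or 1.33-fold lower. Among the arrays of the higher hybridization control set it was -0.28 (adjusted p = 0.062), and the second, dimmer probe set gave -0.31 with overlap (adjusted p = 0.35).

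Sigirr, a receptor of the interleukin-1 receptor family that inhibits signals of its relatives, had log2 levels of 7.62, 8.23 and 8.04 on day 4, 8.08, 7.95 and 7.51 on day 7, 7.99, 8.01 and 7.81 on day 9 and 7.48, 7.60 and 7.68 on day 11. It was 7.44, 7.43 and 7.91 on day 24 and 7.22, 7.26 and 7.33 on day 32. Day 32 was lowest and did not overlap the next age in order, day 11, while all other neighbours in the order overlapped. The fall was -0.40 ± 0.10 (SE; limma adjusted p = 0.0017), or 1.32-fold lower. It ended with the hybridization control set as a block (-0.23, adjusted p = 0.13) and among the arrays of the higher set (-0.21, adjusted p = 0.26). Without day 24 replicate 3, the highest of the later arrays at 7.91, it was -0.48.

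Nfkbia, the inhibitor that holds NF-kappaB in the cytoplasm and is itself induced by it, had log2 levels of 9.96, 9.65 and 9.81 on day 4, 9.91, 9.72 and 10.06 on day 7, 9.92, 9.98 and 9.96 on day 9 and 10.48, 10.02 and 9.67 on day 11. It was 11.08, 11.19 and 11.48 on day 24 and 11.02, 10.63 and 10.83 on day 32. The levels were far above the array medians at every age, and the 4 earlier ages overlapped. The difference was 1.11 ± 0.10 (SE; limma adjusted p = 2.01e-08), or 2.16-fold, and all 5 of its probe sets separated the later from the earlier arrays, by 1.11 to 1.78. With the hybridization control set as a block the difference was 0.92, and without day 24 replicate 3 it was 1.05.

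Tnfaip3, the ubiquitin-editing enzyme that ends signals from Traf6 and other pathway members and is also induced by NF-kappaB, had log2 levels of 5.80, 5.67 and 5.80 on day 4, 5.82, 5.76 and 5.98 on day 7, 5.62, 5.75 and 5.95 on day 9 and 5.91, 6.14 and 5.77 on day 11. It was 7.65, 7.55 and 7.32 on day 24 and 7.18, 6.89 and 6.80 on day 32. Day 24 stood above day 32, and both stood above every earlier array. The difference was 1.40 ± 0.08 (SE; limma adjusted p = 2.06e-11), or 2.64-fold, and 1.45 without day 24 replicate 3. Its second probe set differed by 1.20, with overlap from day 24 replicate 3 alone, which read 4.28 there beside 5.35 and 5.36 on the other day 24 arrays.

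**Figure D4:**
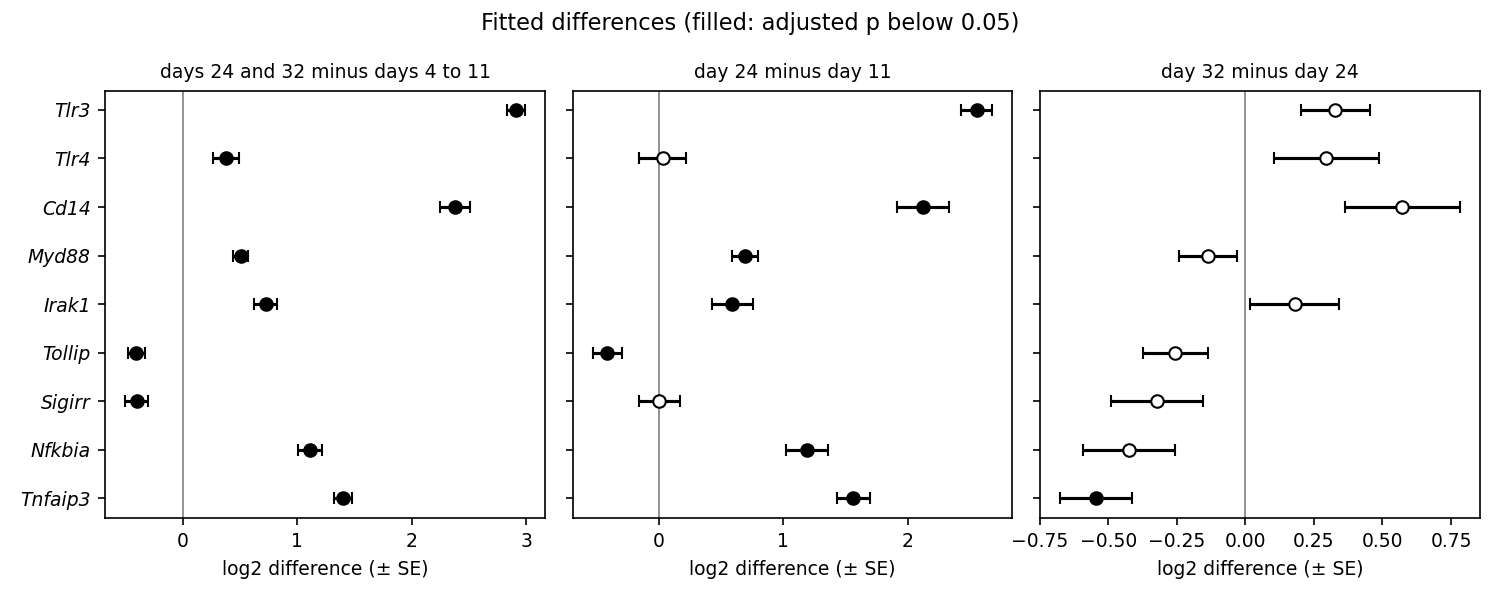
Fitted log2 differences (x, with SE) of the 9 genes (y) for days 24 and 32 minus days 4 to 11, day 24 minus day 11 and day 32 minus day 24; filled points passed an adjusted p of 0.05, Tlr4 is from the fit without the filter, and the x axes differ between panels. The step from day 11 to day 24 carries most of the difference for the genes that rose, and Tnfaip3 is the only filled point for day 32 minus day 24, at -0.55.

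Within suckling, the trend over days 4 to 11 asked whether the genes moved before weaning. Of the 8 genes tested 1 was called, beside 3.6% of all genes, 1.82% of them upward. Tlr3 rose by 0.064 ± 0.017 per day (SE; limma adjusted p = 0.048), at levels below the array medians. Leaving out 1 array at a time gave adjusted p from 0.037 to 0.16 and lost the call for 13 of the 18 arrays, and 9 of 13 other settings lost it too. The slopes of the other 7 genes tested lay between -0.044 (Sigirr) and 0.034 (Nfkbia) per day with adjusted p of 0.29 or more, and that of Tlr4 was 0.026 (adjusted p = 0.78).

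Between day 11 and day 24, the interval that holds weaning, 7 of the 8 genes were called, beside 59.2% of all genes tested, 26.9% higher and 32.3% lower. Tlr3 rose by 2.56 ± 0.13, Cd14 by 2.13 ± 0.21, Tnfaip3 by 1.56 ± 0.13 and Nfkbia by 1.20 ± 0.17 (SE, n = 3 against 3; limma adjusted p from 9.21e-12 to 9.45e-06). Myd88 rose by 0.69 ± 0.11 (adjusted p = 2.16e-05). Irak1 rose by 0.59 ± 0.16 (adjusted p = 0.0045), but within the higher hybridization control set, which holds 1 day 11 array, it differed by 0.53 (adjusted p = 0.12). Tollip fell by 0.41 ± 0.12 (adjusted p = 0.0066), a call lost with the hybridization control set as a block (-0.28, adjusted p = 0.062). Sigirr differed by 0.01 ± 0.17 and Tlr4 by 0.03 ± 0.19, and neither was called (for Tlr4, 39.4% of genes were called in the fit without the filter).

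Day 32 minus day 24 compared the later ages with each other. Of the 8 genes 1 was called, beside 12.3% of all genes tested, 6.11% higher and 6.22% lower. Tnfaip3 fell by 0.55 ± 0.13 (SE, n = 3 against 3; limma adjusted p = 0.011), and the call was lost without day 32 replicate 2 (-0.51, adjusted p = 0.052). Its second, dimmer probe set went the other way (0.63, adjusted p = 0.088). Nfkbia, also an NF-kappaB target, had a difference of -0.42 ± 0.17 (adjusted p = 0.11), and its day 32 arrays were all below those of day 24. Cd14 differed by 0.57 ± 0.21 (adjusted p = 0.083), and without day 24 replicate 3 by 0.87 (adjusted p = 0.0063). Tlr3 differed by 0.33 ± 0.13 (adjusted p = 0.097), with its day 32 arrays above those of day 24. The remaining genes were between -0.32 (Sigirr) and 0.29 (Tlr4, in the fit without the filter, which called 6.52% of genes), with adjusted p of 0.17 or more.

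The other genes of the pathway were read from lists of known members. Their counts for days 24 and 32 against days 4 to 11 are to be read beside the 31.1% of all genes tested that were higher and the 41.8% that were lower. Of the other Toll-like receptors 9 were measured, and 0 passed the filter. Their highest levels on any array were between 3.51 and 6.18. The value of 6.18 was from Tlr1, a partner of Tlr2 for lipoproteins, whose mean was 2.83 on days 4 to 11, 3.91 on day 24 and 5.59 on day 32. Tlr2 averaged 4.10 earlier and 4.91 later, the flagellin receptor Tlr5 4.79 and 4.08, and Tlr9, a receptor of bacterial DNA, 5.26 and 5.42. These genes were not tested.

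Around the receptors, 1 of 6 tested co-receptors and chaperones rose and 3 fell (median -0.28). Unc93b1, which carries Tlr3 and other endosomal receptors to endosomes, rose by 0.49 ± 0.08 (SE; limma adjusted p = 1.39e-05). Cnpy3, a chaperone of several Toll-like receptors, fell by 0.37 ± 0.07. Cd36, a scavenger receptor and fatty acid carrier that also acts with Tlr2, fell by 0.84 ± 0.14. Its means were 7.77, 6.93, 6.84 and 7.16 on days 4, 7, 9 and 11, 5.84 on day 24 and 6.83 on day 32. From day 24 to day 32 Cd36 rose by 0.98 ± 0.24 (limma adjusted p = 0.011). That call was lost without day 24 replicate 3 (0.85, adjusted p = 0.059). Of 3 tested adaptors 2 rose and 1 fell: Ticam1, the adaptor of Tlr3, by 0.38 ± 0.12 and Tirap, which bridges Tlr4 to Myd88, by 0.33 ± 0.08, against -0.19 ± 0.08 for Traf6. Ticam1 and Traf6 lost their calls with the hybridization control set as a block (adjusted p = 0.21 and 0.11).

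Of 9 kinases 2 rose and 5 fell (median -0.29). With the hybridization control set as a block 1 rose and 3 fell, beside 2661 and 3064 of 8630 genes. Irak2, a relative of Irak1 in the same complex, fell by 0.68 ± 0.08 (SE; limma adjusted p = 2.39e-07). Tab3, a partner of Map3k7, fell by 0.59 ± 0.09 (adjusted p = 6.10e-06). Map3k7 fell by 0.42 ± 0.11, a call lost with that block (-0.18, adjusted p = 0.23).

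Of 6 tested transcription factors 4 rose and 0 fell (median 0.65), and without Relb, which passed the filter through the later arrays alone, 3 of 5 rose (median 0.62). Over all 8 measured with no filter the median was 0.65. Relb, an NF-kappaB subunit of the non-canonical branch, rose 5.32-fold (log2 2.41 ± 0.09, SE; limma adjusted p = 3.02e-14), from 5.57 on days 4 to 11 to 7.98. Nfkb2, its usual partner, rose by 0.69 ± 0.08, and Irf8, an interferon regulatory factor of myeloid cells, B cells and epithelium, by 1.09 ± 0.10. Irf8 rose by a further 0.58 ± 0.17 from day 24 to day 32 (adjusted p = 0.033). Both ages lie wholly in the higher hybridization control set. A fit within that set left this step of Irf8 at 0.58 and lost the call on fewer arrays. Over that step the plasma cell gene Jchain rose by 3.54, while the B cell gene Cd79b differed by 0.05 (limma adjusted p = 0.97). The B cell genes Cd79a and Ms4a1, below the filter, averaged 5.56 and 5.16 on day 24 and 5.60 and 4.90 on day 32. The part of such cells was not tested. Relb also had a slope of 0.076 ± 0.020 per day over days 4 to 11 (adjusted p = 0.043), beside 3.6% of all genes called, 1.82% upward. It reached log2 6 on 0 of the earlier arrays, and this call was not followed under other settings. Rela, the main canonical subunit, averaged 7.59 earlier and 7.48 later and was not called.

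Among 14 tested genes listed as other inhibitors, 8 rose and 2 fell (median 0.70 against -0.07 for all genes). Of these, 3 that rose, Zc3h12a, Atf3 and Tnfaip8l2, had passed the filter through the later arrays alone. Among the remaining 11, 5 rose and 2 fell (median 0.33), a split to be read beside 31.1% and 41.8% of all genes. The 5 that rose include Nfkbiz (1.97 ± 0.15, SE) and Peli1 (1.03 ± 0.09), which are not inhibitors alone. Over all 19 measured with no filter the median was 0.38 against 0.04 for all genes. The counts over the 14 were the same with the hybridization control set as a block and without day 24 replicate 3, while 7 rose and 1 fell within the higher set. Zc3h12a, a ribonuclease that degrades inflammatory mRNAs, rose 6.09-fold (log2 2.61 ± 0.09, SE; limma adjusted p = 1.41e-14), from 3.97 to 6.57. Atf3, a repressor induced by Toll-like receptors, rose 5.39-fold (2.43 ± 0.11), and Tnfaip8l2, an inhibitor of immune receptor signals also called TIPE2, rose 4.51-fold (2.17 ± 0.09). The earlier levels of Zc3h12a (3.97) and Tnfaip8l2 (4.22) were near the array medians. Trim30a, a ubiquitin ligase that limits Toll-like receptor signals in mice, fell by 1.15 ± 0.32 from day 24 to day 32 (adjusted p = 0.027), a call lost without day 24 replicate 3 (-1.02, adjusted p = 0.11).

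Of 16 inflammatory target genes 2 passed the filter and 1 rose, Ccl5, a chemokine made by lymphocytes among other cells, which passed through the later arrays. Its mean level was 3.64 on day 11, 4.43 on day 24 and 6.55 on day 32, and it rose by 2.12 ± 0.16 over the last interval (SE; limma adjusted p = 7.87e-08). Summed T cell and intraepithelial lymphocyte markers ran from 7.70 to 7.96 on days 4 to 11 and from 8.06 to 9.95 later. From day 24 to day 32 the mean of Gzma went from 5.03 to 7.51 and that of Gzmb from 4.30 to 6.90. Means of Cd3e, Cd3g, Cd3d and Itgae were also higher on day 32. Those of Cd8a (4.68 and 4.42) and Zap70 (6.95 and 6.78) were lower. The part of these cells was not tested. The other 14, with Tnf, Il1b and Il6 among them, had highest levels between 2.52 and 6.77 on any array. Tnf averaged 4.16 earlier and 4.24 later, Il1b 3.34 and 3.74, and Il6 2.25 and 2.31. Nos2, the inducible nitric oxide synthase, averaged 3.38 on days 4 to 11, 5.26 on day 24 and 6.10 on day 32. The chemokine Cxcl10 averaged 3.78, 5.24 and 4.71, and the iron-binding defence protein Lcn2 averaged 2.74, 4.41 and 2.98, over the same ages. These genes were not tested.

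**Figure D5:**
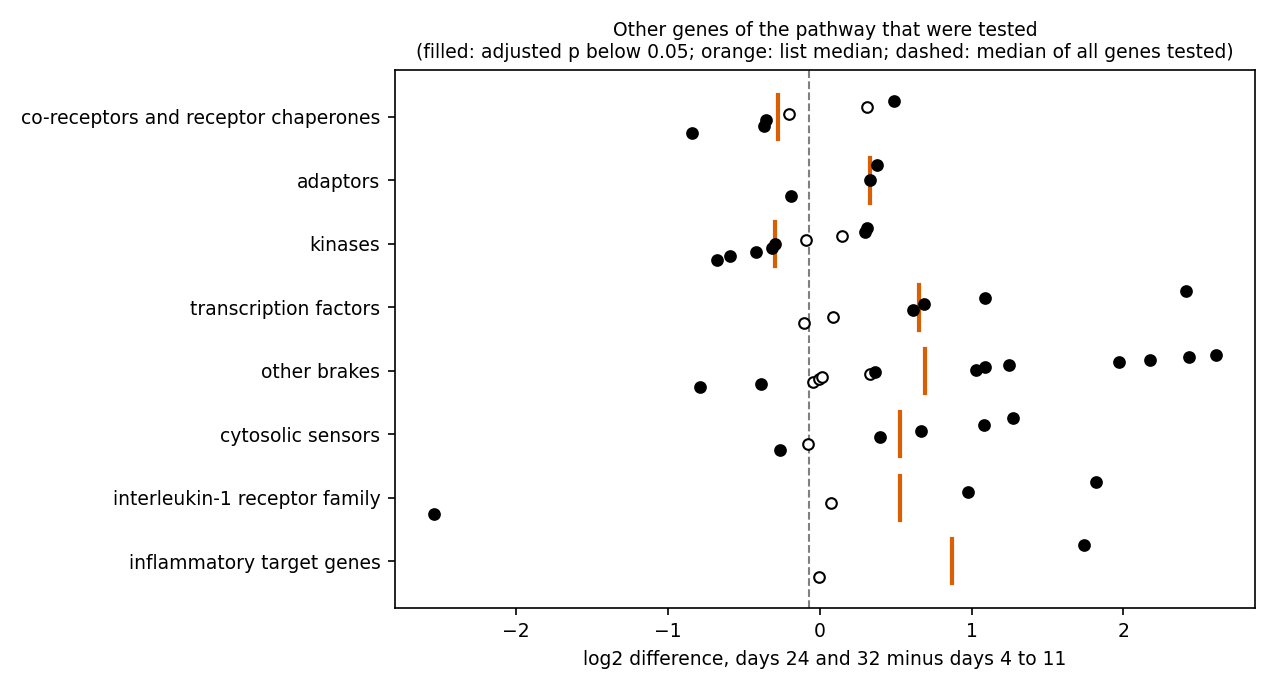
Log2 difference of days 24 and 32 minus days 4 to 11 (x) for each tested gene of the pathway lists (rows); filled points passed an adjusted p of 0.05, orange bars are list medians and the dashed line is the median of all genes tested (-0.07). Of the genes listed as other inhibitors ("other brakes") 8 of 14 are filled points above 0, 3 of which passed the filter through the later arrays alone. Of the kinases 5 of 9 are filled points below 0.

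The genes whose pattern over the 18 arrays was most like each of the 9 were found by Pearson correlation, as a description, since the arrays share the step from day 11 to day 24. They were Upp1 for Tlr3 (r = 0.993), Batf2 for Cd14 (0.991), Cftr for Tnfaip3 (0.981) and Txndc11 for Myd88 (0.965). For Irak1 the closest was Wipf2 (0.950) and for Nfkbia Ptprr (0.948). For Sigirr it was Nudt14 (0.963), for Tollip Guca2a (0.945) and for Tlr4 Fmo2 (0.874). The second closest were Tmigd1 for Tlr3 (0.991), Car4 for Cd14 (0.990), Vnn1 for Tnfaip3 (0.978), Ripk3 for Myd88 (0.964), Plekha2 for Irak1 (0.947), Elovl7 for Nfkbia (0.947), Pih1d1 for Sigirr (0.962), Ip6k1 for Tollip (0.930) and Mon2 for Tlr4 (0.813). Upp1, Batf2, Cftr, Txndc11, Wipf2 and Ptprr were higher on days 24 and 32 than on days 4 to 11, whereas Nudt14 and Guca2a were lower. Guca2a, the hormone guanylin of the gut epithelium, averaged 12.72 on day 11, 11.88 on day 24 and 11.40 on day 32.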

How the data were processed

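RNA of 18 ilea was labelled and hybridized to 1 Affymetrix array each. The deposited table holds log2 values made by the authors with RMA, per the submitters' processing notes; the sources used here do not give its version or the genome build. RMA corrects the background and normalizes arrays together, so low levels and folds against them depend on that step. The table has 45101 probe sets and 0 missing values. No detection calls were used. Of 35890 probe sets in the platform annotation 34945 had 1 symbol and 932 several (not used), and 9211 probe sets of the table were not listed and unnamed here.

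Per gene, the single-symbol probe set with the highest mean was kept. Genes reaching log2 6 on 3 arrays (8630 of 18193) were fitted by age with limma 3.58.1 (R 4.3.3; lmFit, eBayes, 12 residual degrees of freedom), with Benjamini-Hochberg adjustment over all genes tested and a threshold of 0.05. Tlr4 was read from the same fit without the filter. The fit was tested on simulated data. Arrays correlated at 0.983 or more within an age, and 0 pairs were identical; 3 mice per age limit the precision. Replicate numbers follow the order of deposit and pair nothing. Pathway and cell marker lists and the 9 genes were chosen with earlier results of these data known. List genes are named by the size of their change among those called, up to 3 per list and 1 for each later step, and other list genes, given by level only, were picked after values were seen. Alternatives covered the filter, the probe set, the normalization, the variance model, the hybridization control set, Xist and each array left out; list counts under 3 of them, lists without genes that passed the filter through the later arrays alone (under 3 earlier arrays at log2 6) or with no filter, and the macrophage sum without Csf1r were added after seeing the data. Promoters came from RefSeq.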

Additional observations from a re-analysis of the deposited data

Results flagged for a closer look

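Among the 6 arrays of days 24 and 32, pooled because each age has only 3 arrays, day 24 replicate 3 stood apart for 2 of the 9 genes. Its level of Tlr4 was 3.31, the lowest of the 6, with a gap to the next array of 0.628 of the whole range. Its level of Sigirr was 7.91, the highest of the 6, with a gap of 0.674 of the range. Both gaps are above Dixon's critical value for 6 samples, which chance passes in about 1 in 20 groups, and all 9 genes were looked at. The same array had the largest 3′ to 5′ differences of Actb (1.40) and Gapdh (0.92), whose part in these levels was not tested. Without it, the difference of days 24 and 32 minus days 4 to 11 was 0.48 for Tlr4 (limma adjusted p = 0.0015) and -0.48 for Sigirr (limma adjusted p = 0.00040), against 0.38 and -0.40 with it.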

How the results depend on the processing

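No paired analysis was possible because the replicate numbers only follow the order of deposit. Over all genes, the number called for days 24 and 32 against days 4 to 11 was 6292, and 10247 with no filter on dim probe sets, 2865 with a filter at log2 8 and 3340 with the next highest probe set. The filter at log2 8 and the next highest probe set test fewer genes: they gave 2729 and 2763 genes for any difference among ages (main 5897), 2399 and 2330 for day 24 minus day 11 (main 5109), 577 and 375 for day 32 minus day 24 (main 1064) and 159 and 37 for the trend (main 311). These 2 settings tested 3747 and 5565 genes, with 3 and 5 of the 9 genes among them. Of those 3 and 5, they called 3 and 3 among ages and 3 and 4 for the later against the earlier days. For day 24 minus day 11 they called 2 and 4. The trend called 1303 genes with array weights, 477 with only the ages compared, 484 with the hybridization control set as a block and 18 within the higher set, and 0 of the 9 genes under 10 settings. For day 32 minus day 24, 443 genes were called with only the ages compared and 350 within the higher set, with 0 of the 9 genes under these and at log2 8, and 3 under cyclic loess. The higher set holds all arrays of days 24 and 32, so the differences between these 2 ages are unchanged within it. The cause of these shifts was not tested.

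Leaving out each array in turn gave 5488 to 6065 genes for any difference (8 of the 8 genes tested each time). The later against the earlier days gave 6059 to 6344 (8) and the trend 101 to 389 (0 to 1). Day 24 minus day 11 gave 4660 to 5199 (7) and day 32 minus day 24 gave 571 to 1193 (0 to 2). Tlr4, in the fit without the filter, kept its call for the later against the earlier days each time (highest limma adjusted p = 0.046). For any difference it was called in 6 of the 18.

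Directions turned for differences that were small in the main result or that depended on the probe set. Tlr4 turned furthest within the higher hybridization control set, which holds 1 day 11 array. The Irak1 trend was -0.0070 per day with the mean of its probe sets, -0.0214 with the next highest and -0.0019 with Xist as a covariate. Tlr4 on day 24 minus day 11 was -0.0261 with the next highest probe set, -0.0745 after quantile normalization, -0.0528 after cyclic loess, -0.2268 with the hybridization control set as a block and -0.4453 within the higher set; Sigirr was -0.0993 with array weights. For day 32 minus day 24, the mean and the next highest probe set gave -0.0018 and -0.0745 for Irak1, 0.2282 and 0.712 for Tollip and 0.0442 and 0.6344 for Tnfaip3. With arrays left out, the trend ran from -0.0034 to 0.0444 for Tlr4 and from -0.0243 to 0.022 for Irak1, and day 24 minus day 11 from -0.1313 to 0.2696 for Tlr4 and from -0.1525 to 0.0886 for Sigirr. Of the other values for single genes, 508 kept direction and side of the threshold under other settings, 28 lost the call and 11 gained it.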

Other observations

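Sensors of microbes outside the Toll-like receptor family were also measured. Of 6 tested cytosolic sensors and their adaptors 4 rose and 1 fell on days 24 and 32 against days 4 to 11 (median 0.53), beside 31.1% and 41.8% of all genes tested. With the hybridization control set as a block 4 rose and 0 fell, beside 2661 and 3064 of 8630 genes. Ifih1, a cytosolic sensor of double-stranded RNA, the ligand type it shares with Tlr3, rose 2.41-fold (log2 1.27 ± 0.07, SE; limma adjusted p = 1.23e-11), with means of 7.96 on day 11, 9.44 on day 24 and 9.02 on day 32. Nlrp6, an inflammasome protein of the gut epithelium, rose by 1.08 ± 0.06 (adjusted p = 3.09e-11), and Pycard, the inflammasome adaptor, by 0.66 ± 0.09 (adjusted p = 5.02e-06). Mavs, the adaptor of Ifih1, fell by 0.52 ± 0.13 from day 24 to day 32 (adjusted p = 0.015). Both ages lie wholly in the higher hybridization control set. A fit within that set left the fall of Mavs at 0.52 and lost the call on fewer arrays.

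The interleukin-1 receptor family has receptors that also signal through Myd88. Of its 4 tested genes 2 rose and 1 fell, beside 31.1% and 41.8% of all genes tested. Il18bp had passed the filter through the later arrays alone and Il18r1 through the earlier ones, and over all 9 measured with no filter the median difference was 0.27 against 0.04 for all genes. The cytokine Il18 rose by 0.98 ± 0.18 (SE; limma adjusted p = 9.82e-05) and its soluble antagonist Il18bp by 1.82 ± 0.16 (adjusted p = 1.12e-08), while the receptor subunit Il18r1 fell by 2.54 ± 0.11 (adjusted p = 2.26e-13), from a mean of 6.38 on day 11 to 3.83 on day 24, at the array medians. Il33, a cytokine of barrier and stromal cells, had means of 5.90 on day 11, 7.15 on day 24 and 5.38 on day 32, and fell by 1.77 ± 0.21 over the last interval (adjusted p = 2.48e-05).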
